A study of Mus musculus with 74 samples.

Results

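Cell cycle entry is governed by D cyclins and held back by their inhibitors. The 10 mouse genes described here were taken by their symbols: the CDK inhibitors Cdkn1a (p21), Cdkn1b (p27) and Cdkn1c (p57), the D cyclins Ccnd1, Ccnd2 and Ccnd3, the tumour suppressor Trp53 (p53), and the stress genes Gadd45a, Gadd45b and Gadd45g. All 10 were found, of 24940 genes in all, and passed the filter on low values in each of the 6 gene comparisons. They were measured in mouse quadriceps (C57BL/6) with and without BCL6, a DNA-binding transcriptional repressor.

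D cyclins bind CDK4 and CDK6 and start the phosphorylation of RB1, which frees E2F factors to drive entry into S phase. The p21, p27 and p57 proteins bind cyclin-CDK complexes and restrain them. p53 is a transcription factor that responds to DNA damage and other stress, with Cdkn1a and Gadd45a among its best known targets. GADD45 proteins are small stress proteins that bind PCNA, p21 and the kinase MAP3K4, upstream of p38. Muscle fibres are post-mitotic, and p21 and p57 take part in the cell cycle exit of differentiating myoblasts, while Gadd45a is known as a gene induced in denervated and atrophying muscle.

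Knockout muscle came from AEC-Esr Cre(+):Bcl6 fl/fl mice given TMX (5 poly(A) RNA libraries). The controls were Bcl6 fl/fl mice without Cre given TMX (4 libraries) and AEC-Esr Cre(+):Bcl6 fl/fl mice given oil (4 libraries). All 3 groups carry the floxed alleles, and the last 2 differ from the knockouts in Cre or in TMX. In the RiboTag experiment footprints of ribosomes and mRNA came from 4 knockouts, AEC-Esr Cre(+):Bcl6 fl/fl; RiboTag(+), and 4 controls, AEC-Esr Cre(+); RiboTag(+), all given TMX. Animals are named here by their RNA label, such as RNA_11673. These controls carry Cre and RiboTag but no floxed Bcl6. RiboTag is an HA-tagged ribosomal protein, and anti-HA beads recover the tagged ribosomes. The labels list the antibody for the RiboTag poly(A) RNA too, so whether that RNA came from whole muscle or from the beads cannot be told. Nascent RNA came from wild-type mice treated with the BCL6 inhibitor FX1 or with DMSO (5 libraries each). Acetylated histone H3 lysine 27 (H3K27ac), found at promoters and enhancers in use, was profiled in Bcl6 fl/fl mice without Cre and in knockouts, 3 libraries each, in 3 series. File headers name the first acute (1 week) and the second chronic (12 weeks). The third was counted in 1000 bp windows on BCL6 peaks, in animals that also gave poly(A) RNA. BCL6 binding was mapped in 1 wild-type library. The labels give no ages and do not say in which cells the AEC-Esr Cre is active.

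Library totals were 6.7e+06 to 7.6e+06 tags for poly(A) RNA, 1.4e+07 to 3.3e+07 for nascent RNA and 7.8e+06 to 2.3e+07 for H3K27ac. Counts in genes came to 6499561 to 13045854 per RiboTag mRNA library and 3248807 to 4370468 per footprint library. Bcl6 itself fell in knockout poly(A) RNA, from 10.34 ± 0.09 (SD, n = 4) in Cre-negative muscle to 10.11 ± 0.12 (n = 5) on the deposited log2 scale. The drop was 0.23 (limma, adjusted p = 0.0134; 0.0687 after quantile normalization and 0.111 with no filter), and it was 0.31 against oil (adjusted p = 0.00272). Bcl6 footprints fell from 197 ± 57.6 to 90.7 ± 15.9 CPM, TMM-scaled counts per 1e+06 (SD, n = 4 each; edgeR adjusted p = 0.00201). RiboTag Bcl6 mRNA was 209 ± 94.5 in controls and 229 ± 38.8 in knockouts, a log2 change of 0.14 ± 0.26 (SE; adjusted p = 0.84), so Bcl6 mRNA does not check the labels of those libraries. The tables count exons or the whole gene, and the position of the deleted part is not given, so reads outside it count in all groups. Libraries that stood apart were FX1 replicate 3 and DMSO replicate 4, which correlated with the mean of their group at 0.975 and 0.977 against 0.984 or more for the others. The chronic Cre-negative H3K27ac library Ctr_1801 did so at 0.788, with 0.864 or more for the other 5. All 14 fibre markers passed the filter in each RNA comparison. In bulk tissue fewer cells of a type and less RNA per cell cannot be told apart.

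Promoters of the members are shown first because BCL6 peaks adjoin or overlap some of them and because Cdkn1a and Gadd45a are classic p53 targets. RefSeq sequences (GRCm38.p6) were found for 7 of the 10 genes; Cdkn1c, Ccnd1 and Ccnd2 had no entry. The 250 bases before each start were searched on both strands for TTCNNNGAA, the spaced repeat bound by BCL6 and STAT factors, for its stricter form TTCCNAGAA, which is a subset of the former, and for the p53 decamer, the repeated unit of the p53 response element. The strands and starts equal those of the mm10 tables. Of 32851 promoter windows of this length, 7.02% held TTCNNNGAA, 1.92% TTCCNAGAA and 7.13% a p53 decamer. No member window held TTCNNNGAA. In Cdkn1a and Gadd45a, capitals mark matches to the p53 decamer. In Gadd45b, they mark the 31 bases that lie under a BCL6 peak.
Cdkn1a, upstream start, chr17:29090729-29090978, plus strand: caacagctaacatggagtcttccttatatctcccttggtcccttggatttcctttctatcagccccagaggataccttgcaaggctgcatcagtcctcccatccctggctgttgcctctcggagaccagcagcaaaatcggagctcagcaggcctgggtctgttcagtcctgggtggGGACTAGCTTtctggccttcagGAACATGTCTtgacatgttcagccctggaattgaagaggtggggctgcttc
Cdkn1a, start of NM_007669, chr17:29093519-29093768, plus strand: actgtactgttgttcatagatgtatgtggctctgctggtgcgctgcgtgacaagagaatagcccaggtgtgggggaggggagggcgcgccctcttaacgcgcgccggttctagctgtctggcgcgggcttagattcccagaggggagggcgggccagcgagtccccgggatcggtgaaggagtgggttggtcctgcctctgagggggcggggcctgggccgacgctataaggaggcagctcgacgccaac
Gadd45a, chr6:67037408-67037657, minus strand: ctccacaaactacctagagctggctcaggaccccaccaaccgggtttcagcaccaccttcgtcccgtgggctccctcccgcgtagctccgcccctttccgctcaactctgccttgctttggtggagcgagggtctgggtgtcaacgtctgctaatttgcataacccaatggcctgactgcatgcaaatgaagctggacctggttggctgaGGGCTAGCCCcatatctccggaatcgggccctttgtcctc
Gadd45b, chr10:80929841-80930090, plus strand: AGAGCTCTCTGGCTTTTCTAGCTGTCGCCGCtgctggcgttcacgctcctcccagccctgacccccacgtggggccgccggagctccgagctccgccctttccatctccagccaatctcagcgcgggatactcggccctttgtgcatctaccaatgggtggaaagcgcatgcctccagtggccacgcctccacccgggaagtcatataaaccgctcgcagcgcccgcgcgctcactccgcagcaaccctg
The upstream Cdkn1a window held 2 decamers, starting 73 and 51 bases before the start, and the NM_007669 window held none. The Gadd45a window held 1, starting 40 bases before the start. Trp53 held 1 as well, starting 75 bases before its start, and no match was found in the windows of Cdkn1b, Gadd45b, Gadd45g or Ccnd3. A match is a run of letters and was not tested for binding.

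Levels of the members were compared per exon length in the 4 Cre-negative poly(A) libraries, as the back-transformed log2 value per kilobase of exon. Cdkn1a stood highest at 281 ± 14 (SD), with its lowest library (267) above the highest of Gadd45a (248). Gadd45a (222 ± 18.0), Cdkn1b (214 ± 9.95), Ccnd3 (209 ± 3.98), Gadd45g (195 ± 30.8), Cdkn1c (171 ± 14) and Trp53 (158 ± 7.16) followed, and each overlapped its neighbour in that order. Gadd45b (117 ± 15.9) and Ccnd1 (103 ± 7.97) lay below Trp53 without overlap, and overlapped each other. Ccnd2 was lowest at 77.7 ± 5.84, below every Ccnd1 library. The transform behind the deposited values is not named, so the order holds for that scale. RiboTag mRNA per kilobase of whole gene, introns included, gave another order in the 4 controls. Gadd45g was highest there (82.1 ± 38.4 CPM per kilobase) and Ccnd3, the longest member, lowest (0.64 ± 0.05). Cdkn1c (19.9 ± 1.62), Gadd45a (18.9 ± 3.49), Gadd45b (18.1 ± 3.17) and Cdkn1b (14 ± 1.1) followed Gadd45g, with Cdkn1c, Gadd45a and Gadd45b within 1 SD of each other. Ccnd1 (6.13 ± 0.86), Cdkn1a (3.93 ± 0.40), Trp53 (3.85 ± 0.50) and Ccnd2 (1.97 ± 0.13) came next, of which Cdkn1a and Trp53 did not differ beyond their spread.

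Ribosome occupancy also set the members apart in control muscle. The ratio of footprints to mRNA, both in CPM over whole genes, had a median of 1.1 over 12438 genes. Gadd45b was at 2.34 ± 0.24 (SD, n = 4), Gadd45g at 2.22 ± 0.56 and Cdkn1b at 2.15 ± 0.28, above the upper quartile of all genes (1.73). Gadd45a (1.5 ± 0.25), Cdkn1a (1.41 ± 0.09) and Ccnd2 (1.29 ± 0.21) lay above the median. Cdkn1c (0.72 ± 0.07), Ccnd1 (0.55 ± 0.13), Trp53 (0.51 ± 0.03) and Ccnd3 (0.43 ± 0.02) lay below it, the last 3 under the lower quartile (0.69). Introns count in both kinds of library and were not separated, so the ratio is not one of exons alone. Ccnd3, the lowest, was counted over 94637 bases, against 1972 bases of exon in the poly(A) counts. The mRNA may also come from whole muscle, and then the ratio would not compare the same cells.

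The question for the RiboTag animals was what BCL6 loss did to the members' mRNA and to its translation. Footprints of Ccnd2 and Ccnd1 fell and those of Cdkn1a rose in knockouts, so 3 of 10 members were called (2 lowered, 1 raised), where 26.6% of 12979 genes were called, 15.7% lowered and 10.9% raised. Their mRNA was not called. Groups did not overlap for 2 members, Ccnd2 and Cdkn1a (25% of all genes).

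Ccnd2 encodes cyclin D2. Its footprints were 75.1, 65.5, 65.6 and 50.1 CPM in the controls and 32.9, 37.1, 25.7 and 31.3 in the knockouts. All knockouts lay below all controls. The log2 change was -1.01 ± 0.15 (SE; edgeR adjusted p = 0.000974). Ccnd2 mRNA went the other way in value, from 49.0, 47.8, 54.6 and 48.1 in controls to 55.9, 58.6, 55.8 and 67.2 in knockouts, without overlap and with a log2 change of 0.25 ± 0.09 (adjusted p = 0.175).

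Ccnd1 encodes cyclin D1. Its footprints were 34.0, 39.5, 40.9 and 20.2 CPM in the controls and 12.1, 21.1, 9.52 and 8.54 in the knockouts, so 1 knockout lay just above the lowest control. The log2 change was -1.40 ± 0.29 (SE; edgeR adjusted p = 0.00424). Ccnd1 mRNA was lower too, at 57.3, 58.9, 73.9 and 54.8 against 38.4, 45.6, 53.3 and 47.3, without overlap. That change of -0.41 ± 0.12 had an adjusted p of 0.0933 (edgeR) and 0.0341 (DESeq2). Ccnd1 footprints rest on few reads, with counts as low as 33 in a library. Cyclin D3 (Ccnd3) footprints were 26.3 ± 2.63 and 24.4 ± 2.25 (log2 change -0.10 ± 0.15, adjusted p = 0.636). Ccnd1, Ccnd2 and Ccnd3 share 818, 1660 and 358 bases with a gene on the other strand (Oraov1, 9330179D12Rik and Bysl), and the headers name no strand for these counts, so reads in the shared bases cannot be told apart.

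Cdkn1a footprints were 51.9, 50.5, 58.0 and 54.8 CPM in the controls and 78.1, 77.7, 76.7 and 73.3 in the knockouts. The groups did not overlap, and the log2 change was 0.51 ± 0.10 (SE; edgeR adjusted p = 0.00299). Cdkn1a mRNA was 35.0, 37.4, 43.9 and 36.8 in controls and 43.8, 45.1, 46.2 and 51.8 in knockouts, with 1 control just above the lowest knockout (log2 change 0.29 ± 0.10, adjusted p = 0.149). The other CDK inhibitors showed no called change, with footprints of Cdkn1b at 157 ± 9.42 and 160 ± 17.4 and of Cdkn1c at 39.1 ± 6.05 and 43.9 ± 6.61. Trp53 footprints were 22.6 ± 3.92 and 22.5 ± 4.44, and its mRNA was 44.4 ± 5.76 and 44.6 ± 2.65.

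In RiboTag mRNA 0 of 10 members were called by edgeR, where 4.21% of 14476 genes were (1.95% raised, 2.25% lowered); 4 members had an unadjusted p under 0.05, and DESeq2 called 2, Ccnd1 and Gadd45a. Over all genes, 2465 of 14476 had an unadjusted p under 0.05. Groups did not overlap for 3 members, Ccnd1, Ccnd2 and Gadd45a, against 11.3% of all genes. The median change of the 10 members was 0.09 in mRNA and 0.01 in footprints, and 0.01 and 0.00 over all genes. Gadd45a mRNA was 34.3, 54.0, 43.8 and 42.4 in the controls and 56.4, 68.0, 59.2 and 60.3 in the knockouts. Its log2 change was 0.48 ± 0.13 (edgeR adjusted p = 0.0567; 0.0226 by DESeq2, and 0.0155 by edgeR without control RNA_11734, where the change was 0.60). Gadd45a footprints were 65.5 ± 14.9 in controls and 80.2 ± 6.03 in knockouts (log2 change 0.29 ± 0.15, adjusted p = 0.177).

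Gadd45b and Gadd45g encode the other two GADD45 proteins. Gadd45b footprints were 97.3, 84.8, 67.8 and 109 in controls and 141, 104, 129 and 90.1 in knockouts (log2 change 0.37 ± 0.16, edgeR adjusted p = 0.105). The change was called without control RNA_11745 (0.48, adjusted p = 0.0473) or without knockout RNA_11722 (0.49, adjusted p = 0.0410). Gadd45g mRNA was 48.9, 151, 194 and 196 in controls and 87.0, 147, 75.5 and 111 in knockouts (log2 change -0.48 ± 0.35, adjusted p = 0.529). Control RNA_11673 lay far below the other 3 controls. Without it, Gadd45g was called lower in mRNA (-0.79, adjusted p = 0.0370) and in footprints (-0.61, adjusted p = 0.00803; -0.38 and 0.235 with it). The RiboTag counts keep at most 5 tags per position, and Gadd45g reached 1.86 tags per exon base in mRNA and 1.36 in footprints, so its level there may be understated. No other member passed 1.

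**Figure D1:**
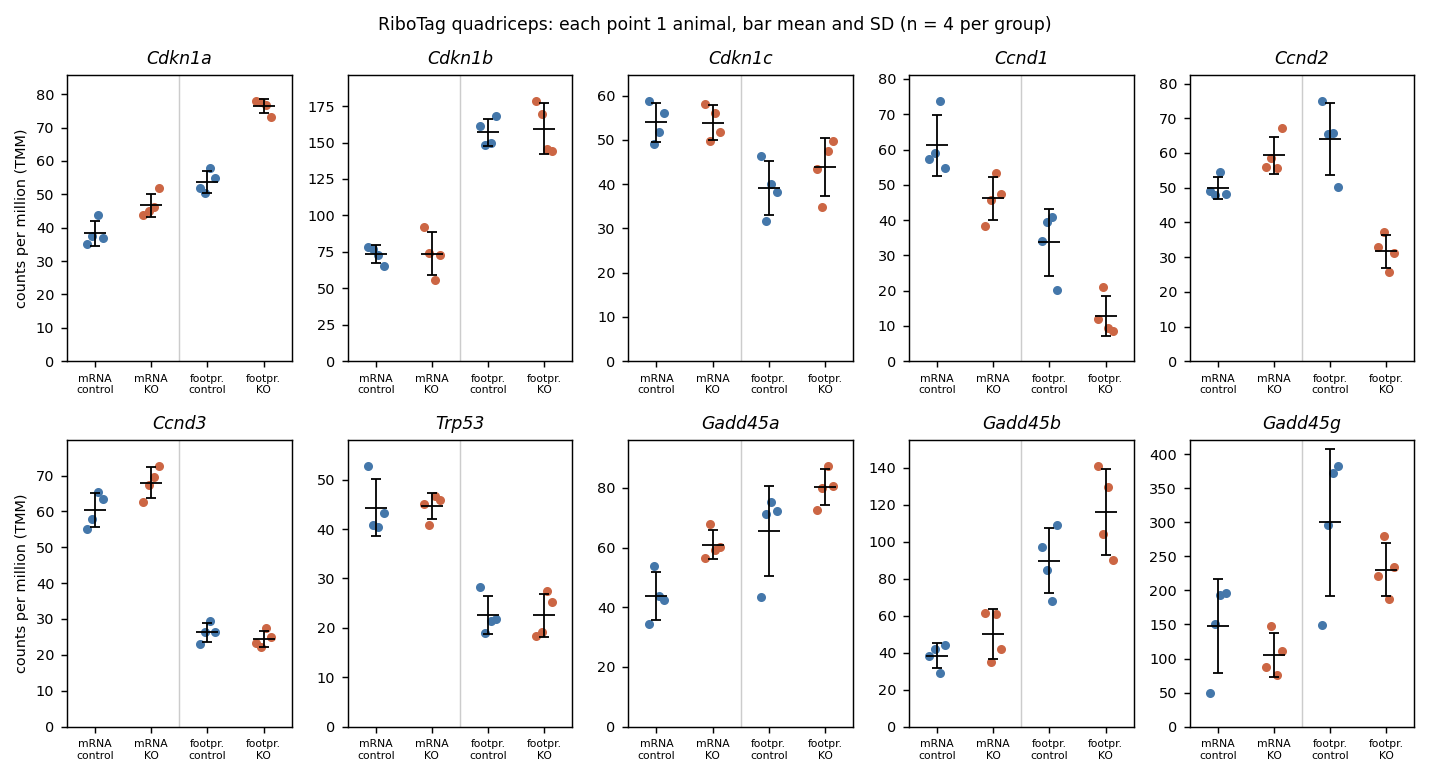
CPM (TMM-scaled, y axis from 0) of each member in RiboTag mRNA and footprints. Points are single animals, bars the mean and SD of 4 controls (blue) or 4 knockouts (orange). Ccnd2 knockout footprints (25.7 to 37.1) lie below all controls (50.1 to 75.1), and Cdkn1a knockout footprints (73.3 to 78.1) above all controls (50.5 to 58.0).

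Markers of cells other than fibres moved in the same footprint libraries. In knockout footprints, 10 of 10 fibroblast, 9 of 10 endothelial and 7 of 8 smooth muscle and pericyte markers tested were lowered. Of 12 macrophage and myeloid markers 11 were lowered and 1 raised, and 5 of 6 adipocyte and 3 of 6 Schwann cell markers were lowered. Summed endothelial markers ran from 444 to 799 CPM in controls and from 166 to 404 in knockouts. Macrophage markers ran from 1172 to 1614 and from 448 to 916, fibroblast markers from 3613 to 5866 and from 2094 to 3527, and smooth muscle markers from 786 to 1277 and from 277 to 704. No marker was at 0 in every library of a group. In RiboTag mRNA none of these markers was called, and the sums overlapped (endothelial 1095 to 1258 against 1060 to 1311). Fibre markers in footprints were 0 raised and 3 lowered of 14, and of 10 satellite cell markers 1 was raised and 4 were lowered. The part of the other cell types in the fall of the Ccnd1 and Ccnd2 footprints was not tested.

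Translation efficiency, the footprint change beyond the mRNA change, was tested in 1 model over the 16 libraries. Of the 10 members 1 was called, Ccnd2, where 9.91% of 14935 genes were called, 6.98% lowered and 2.93% raised. The Ccnd2 footprint to mRNA ratio was 1.53, 1.37, 1.2 and 1.04 in the controls and 0.59, 0.63, 0.46 and 0.47 in the knockouts. No knockout reached a control, and the log2 change was -1.22 ± 0.17 (SE; edgeR adjusted p = 0.00233). The targeted gene Bcl6 had an efficiency change of -1.22 ± 0.37 (edgeR adjusted p = 0.0410). That call was lost without control RNA_11673 (-1.06, edgeR adjusted p = 0.0885) and without control RNA_11745 (0.0524). It was also lost without knockout RNA_11688 (edgeR adjusted p = 0.0996), RNA_11721 (0.0898) or RNA_11722 (0.108). As stated above, reads outside the deleted part of Bcl6 count in all groups.

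Ccnd1 ratios were 0.59, 0.67, 0.55 and 0.37 in controls and 0.31, 0.46, 0.18 and 0.18 in knockouts, with 1 knockout above the lowest control. Its log2 change was -0.95 ± 0.31 (edgeR adjusted p = 0.0563). With the animal as a replicate block, which the shared animals allow, the change was -0.96 and called (adjusted p = 0.0356). It was also called by DESeq2 (-0.94, adjusted p = 0.0289), with no filter (-0.96, adjusted p = 0.0493), without control RNA_11745 (-1.06, adjusted p = 0.0283) and without knockout RNA_11718 (-1.34, adjusted p = 0.00536). Ccnd3 ratios were 0.42, 0.46, 0.45 and 0.41 in controls and 0.37, 0.33, 0.39 and 0.34 in knockouts. They did not overlap, but the log2 change of -0.23 ± 0.16 was not called (adjusted p = 0.353). In efficiency, 9 of 10 endothelial, 7 of 9 smooth muscle, 5 of 10 fibroblast, 3 of 13 macrophage and 2 of 10 satellite cell markers were lowered and 0 of 14 fibre markers were called; their part in the change of Ccnd2 was not tested.

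Cdkn1a ratios were 1.48, 1.35, 1.32 and 1.49 in controls and 1.78, 1.72, 1.66 and 1.42 in knockouts. The log2 change of 0.26 ± 0.14 was not called (edgeR adjusted p = 0.227). The authors' deposited table gives Cdkn1a a larger change, 1.05 with an adjusted p of 7.89e-06, from an efficiency of 1.28 in controls to 2.65 in knockouts. For Ccnd2 and Ccnd1 the authors' deposited table gives -1.41 (adjusted p = 1.53e-06) and -1.01 (adjusted p = 0.0381), and its other 7 members have an adjusted p of 0.0985 or more. The source of the difference for Cdkn1a was not tested. In the fit here the remaining members changed by -0.15 to 0.22 with an adjusted p of 0.443 or more.

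**Figure D2:**
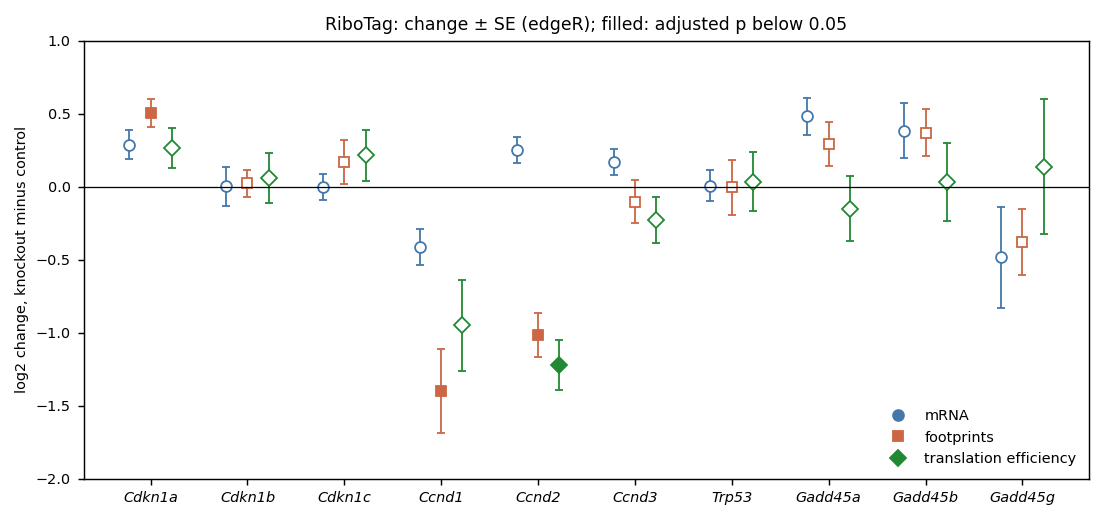
Log2 change (knockout minus control, y axis) of each member in RiboTag mRNA (circles), footprints (squares) and translation efficiency (diamonds), with SE; filled symbols have an edgeR adjusted p below 0.05. Ccnd2 has a footprint change of -1.01 and an efficiency change of -1.22, Ccnd1 of -1.40 and -0.95, and Cdkn1a of 0.51 and 0.26.

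Poly(A) RNA of whole quadriceps asked whether the members' RNA levels change with BCL6 loss. Gadd45a and Cdkn1c were raised against both kinds of control, and no member was lowered. That is 2 of 10 against Cre-negative muscle, where 15.9% of 13096 genes were called (6.25% raised), and 2 of 10 against oil, where 24.3% of 13124 were (10.3% raised). Lowered genes made up 9.66% and 14%. Groups did not overlap for 1 member in each, Gadd45a, against 15.6% and 21.6% of all genes. The 5 knockouts are shared between these comparisons, which therefore are not independent.

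Gadd45a stood at 8.24, 8.08, 7.98 and 8.02 on the log2 scale in Cre-negative muscle and at 8.47, 8.29, 8.53, 8.5 and 8.43 in knockouts. Beside oil, it was 8.24, 8.30, 8.25 and 8.21 in oil-treated muscle and 8.55, 8.35, 8.62, 8.59 and 8.51 in the same knockouts. No knockout fell to a control value in either table. The difference was 0.36 ± 0.05 against Cre-negative (SE; limma adjusted p = 0.000552) and 0.27 ± 0.05 against oil (adjusted p = 0.000901). The authors' deposited table gives log2 fold changes of 0.62 and 0.45 for these comparisons. Gadd45a shares 809 bases with E230016M11Rik on the other strand, and these tables were counted on both strands, so their reads cannot be told apart.

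Cdkn1c, the imprinted inhibitor p57, stood at 8.43, 8.35, 8.20 and 8.49 in Cre-negative muscle and at 8.66, 8.64, 8.46, 8.61 and 8.71 in knockouts, so 1 knockout overlapped the controls. Against oil, at 8.49, 8.23, 8.35 and 8.37, the knockouts were 8.69, 8.67, 8.48, 8.63 and 8.75, again with 1 overlapping. The differences were 0.25 ± 0.06 (limma adjusted p = 0.00888; 0.0889 with no filter, which tests more genes) and 0.28 ± 0.06 (adjusted p = 0.00283). RiboTag mRNA of Cdkn1c did not show this rise (54.0 ± 4.40 in controls and 53.9 ± 3.90 in knockouts).

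Differences of the other members against Cre-negative muscle ran from -0.13 (Ccnd2, limma adjusted p = 0.0621) to 0.11 (Cdkn1a, 0.21). Without Cre-negative P1898 the Ccnd2 difference was called (-0.17, adjusted p = 0.0212), and without knockout P1896 that of Cdkn1a was (0.16, 0.0338). Against oil they ran from -0.21 (Gadd45b, 0.0931) to 0.20 (Cdkn1a, 0.0943). Cdkn1a was called there without oil P1910 (0.27, 0.0202) or knockout P1896 (0.25, 0.0383). Gadd45b was called without oil P1910 (-0.28, 0.0347) or knockout P1900 (-0.27, 0.0259), and Ccnd3 without oil P1905 (0.09, 0.0478). Trp53 was 8.19 ± 0.07 in Cre-negative muscle, 8.15 ± 0.03 in knockouts (limma adjusted p = 0.475) and beside oil 8.21 ± 0.02 against 8.17 ± 0.03 (0.267). Markers of endothelial, macrophage, smooth muscle and adipocyte cells held no call against Cre-negative muscle, while 2 of 10 fibroblast and 6 of 14 fibre markers were lowered and 1 fibre and 1 Schwann cell marker were raised. Against oil, 3 fibre markers were raised and 4 lowered, and 5 of 5 erythroid, 3 of 10 satellite cell and 3 of 8 Schwann cell markers were raised. There 2 of 10 fibroblast and 1 of 9 smooth muscle markers were lowered, and of 11 macrophage markers 1 was raised and 1 lowered; their part in the calls was not tested.

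**Figure D3:**
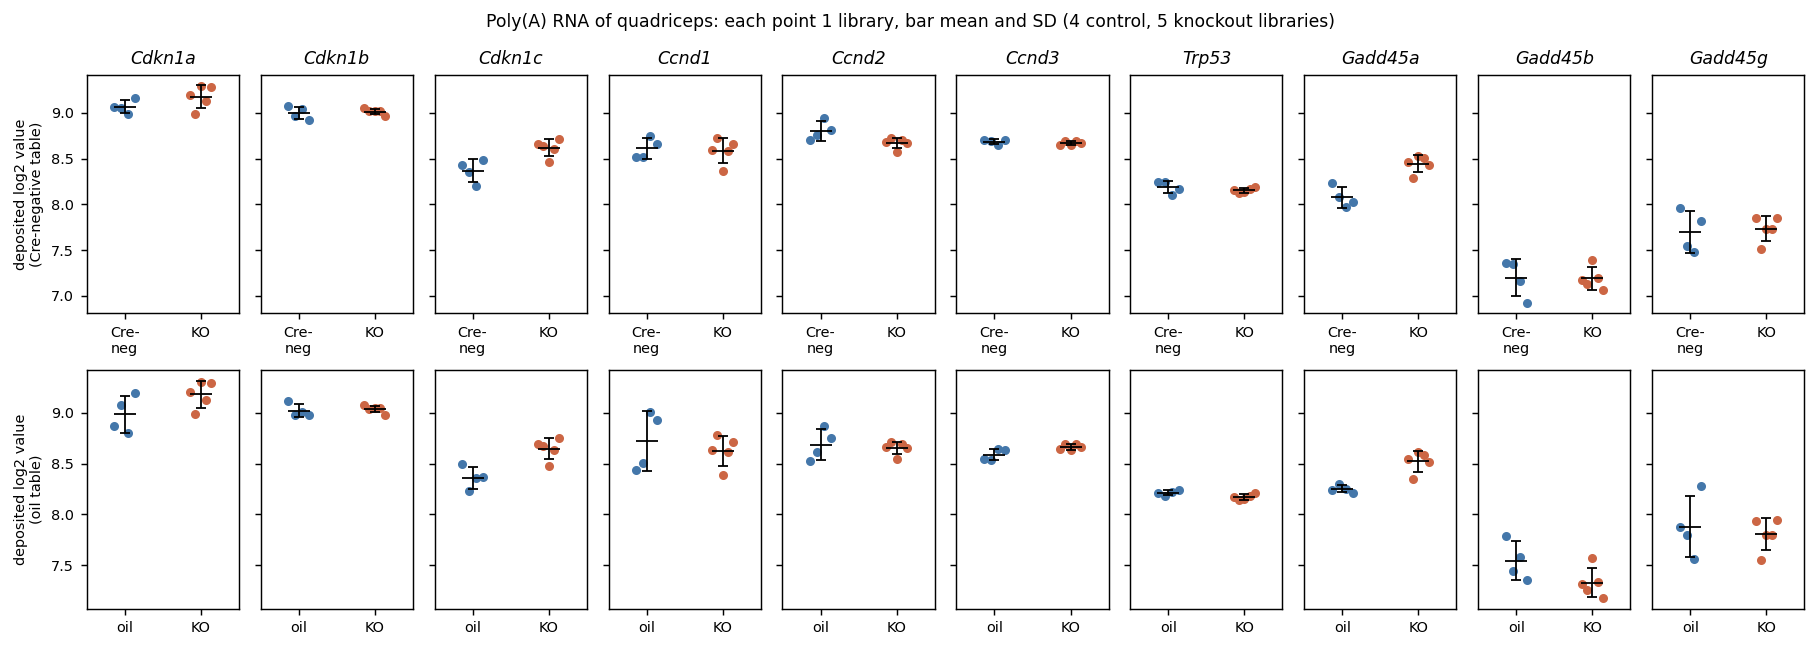
Deposited log2 values (y axis) of the members in poly(A) RNA: top, 4 Cre-negative and 5 knockout libraries; bottom, 4 oil-treated libraries and the same knockouts in their own table. Bars are mean and SD. Gadd45a knockouts (8.29 to 8.53 in the top row) lie above all Cre-negative libraries (7.98 to 8.24).

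Nascent RNA asked which members change in transcription when BCL6 is inhibited. Cdkn1a, Gadd45b, Gadd45g and Ccnd3 rose with FX1 and none fell, 4 of 10 members, where 22% of 14642 genes were called, 11.3% raised and 10.8% lowered. In all 4 the FX1 libraries lay above the DMSO libraries without overlap, which held for 17.2% of all genes. The members' median difference was 0.27, and 0.01 over all genes. Bcl6 itself differed by 0.40 ± 0.23 (SE; limma adjusted p = 0.225), and by 0.62 without FX1 replicate 3 (limma adjusted p = 0.00862).

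Cdkn1a was 7.76, 8.31, 8.40, 7.66 and 8.25 on the log2 scale in DMSO and 10.88, 11.04, 9.43, 9.66 and 9.89 in FX1. The difference was 2.11 ± 0.31 (SE; limma adjusted p = 0.000931), the widest of the members. Gadd45b was 8.56, 8.58, 8.20, 7.92 and 8.62 in DMSO and 10.40, 10.52, 8.79, 9.95 and 10.15 in FX1, a difference of 1.58 ± 0.29 (adjusted p = 0.00325). In these FX1 libraries replicate 3 was lowest for both genes.

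Gadd45g was 9.94, 9.93, 10.14, 9.37 and 10.08 in DMSO and 12.15, 11.46, 10.26, 11.56 and 11.54 in FX1, a difference of 1.5 ± 0.29 (limma adjusted p = 0.00422). Ccnd3 was 9.29, 9.36, 9.38, 8.77 and 9.64 in DMSO and 10.57, 9.99, 9.68, 10.69 and 10.84 in FX1, a difference of 1.07 ± 0.23 (adjusted p = 0.00731). FX1 replicate 3 was again lowest, just above the highest DMSO library in both. Nascent Ccnd3 was counted over the 94637 bases of NM_001081635, which starts upstream of NM_007632, the transcript of the poly(A) counts. The authors' deposited table gives log2 fold changes of 2.73 for Cdkn1a, 2.09 for Gadd45b, 1.96 for Gadd45g and 1.40 for Ccnd3.

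The other D cyclins did not rise. Ccnd2 was 8.06, 8.32, 8.37, 7.77 and 8.33 in DMSO and 7.67, 6.86, 6.63, 8.05 and 8.14 in FX1, a difference of -0.70 ± 0.28 (limma adjusted p = 0.0951; -0.87 and 0.048 without FX1 replicate 5). Ccnd1 was 5.92 ± 0.19 (SD, n = 5) and 5.78 ± 0.20 (adjusted p = 0.506). Among the inhibitors, Cdkn1b was 8.38 ± 0.20 and 8.16 ± 0.24 (adjusted p = 0.283). Cdkn1c was 5.62 ± 0.26 and 5.92 ± 0.61 (0.443), and it was called without FX1 replicate 3 (0.53, adjusted p = 0.0447). Gadd45a, raised in knockout poly(A) RNA, was 8.01 ± 0.14 and 8.26 ± 0.26 here (0.217), and Trp53 was 8.44 ± 0.18 and 8.46 ± 0.25 (0.921). These wild-type mice and the knockouts are separate experiments on separate scales, and the difference between them was not tested. Of 14 fibre markers 8 were lowered with FX1, of 10 satellite cell and myoblast markers 3, of 7 adipocyte markers 4, and the 1 lymphocyte marker tested; their part in the members' changes was not tested. Summed fibre markers, back-transformed, were 1706786 to 2069462 in DMSO and 859266 to 1343501 in FX1. No endothelial, macrophage or smooth muscle marker fell, and 1 of 10, 2 of 10 and 1 of 8 of those tested rose.

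**Figure D4:**
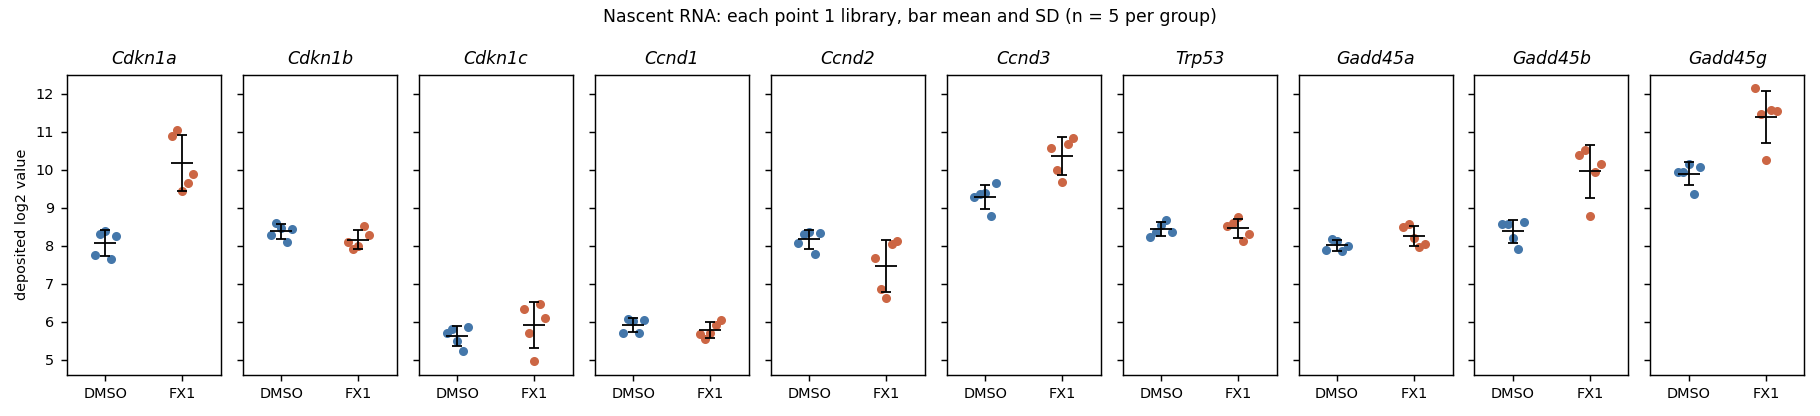
Deposited log2 values (y axis) of the members in nascent RNA of wild-type muscle given DMSO (blue) or FX1 (orange). Points are libraries, bars mean and SD of 5. Cdkn1a FX1 libraries (9.43 to 11.04) lie above all DMSO libraries (7.66 to 8.40), as do those of Ccnd3, Gadd45b and Gadd45g.

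BCL6 peaks were named for 9 of the 10 members, 18 of the 10925 deposited peaks, with none for Cdkn1b. At least 1 peak was named for 6359 genes, where 24940 genes were measured in all. Peaks carry the gene with the nearest start, and the score is the authors' own, on a scale that is not named. The median score was 47.1 for the 18 and 23.3 for all peaks. The highest belonged to an intergenic peak 13785 bases beyond the Cdkn1c start (189.9, chr7:143447155-143447375). Next were a Gadd45a peak 100758 bases upstream (94.3, chr6:67138055-67138275) and a Cdkn1a peak in the first intron of NM_007669, 899 bases from its start (93.1, chr17:29094558-29094778).

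Beside the Cdkn1a peak at +899, further members had a peak near their start. The Gadd45b promoter held one at -330 (50.2, chr10:80929651-80929871), which reaches into the window printed above, and the Gadd45a promoter one at -361 (29.4, chr6:67037658-67037878), which begins at the base next to its printed window. Ccnd2 had a promoter peak at -957 (27), Gadd45g one in its last exon at +1415 (45.3, 3′ UTR) and Ccnd1 an intergenic one at -1805 (25.7). Ccnd3 had a first intron peak at +6053 (69.8), and the Trp53 peak lay at the gene's end, at +11881 (56.4). Of the 18 peaks, 15 scored above the median of all peaks, at least 1 for each of the 9 members.

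H3K27ac in the windows on these peaks was raised in knockouts at 1 of the 15 member windows tested, of 18 in all, where 18.1% of 9155 windows were called (16.6% raised, 1.42% lowered). Groups did not overlap in 2 of the 15, against 34.2% of all windows. Gadd45a had 3 windows, of which 2 were tested and 1 was called, with a median log2 difference of 0.56 over those tested. The called window lies at the distal Gadd45a peak (chr6:67137665-67138665). Its signal per 10000000 tags was 32.6, 38.0 and 34.3 in Cre-negative muscle and 56.1, 84.9 and 62.5 in knockouts, without overlap. The log2 difference was 0.92 ± 0.18 (SE; limma on log2(signal + 1), adjusted p = 0.0031). Over all windows the median difference was 0.14 and 92.1% of calls were raised; quantile normalization moved the median to -0.07 and that share to 62.7%, and the Gadd45a window stayed called. The animals are among those whose poly(A) Gadd45a is given above.

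A window 28247 bases from Cdkn1c had 50.6, 50.7 and 42.5 in Cre-negative muscle and 74.4, 73.9 and 57.0 in knockouts. The log2 difference of 0.50 ± 0.17 missed the threshold (limma adjusted p = 0.0506; 0.0495 with a pseudocount of 5, 0.0461 without knockout mKO_1907). The window on the strongest peak, at 13785 bases, held 1.43 to 4.0 in all libraries and was not tested. The Cdkn1a intron window was 149, 142 and 135 against 140, 169 and 145 (adjusted p = 0.661), and the Gadd45b promoter window 147, 191 and 155 against 191, 196 and 164 (0.409). The Trp53 window, at 215, 195 and 202 against 197, 285 and 243, was called without knockout mKO_1896 (0.37, adjusted p = 0.0372).

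**Figure D5:**
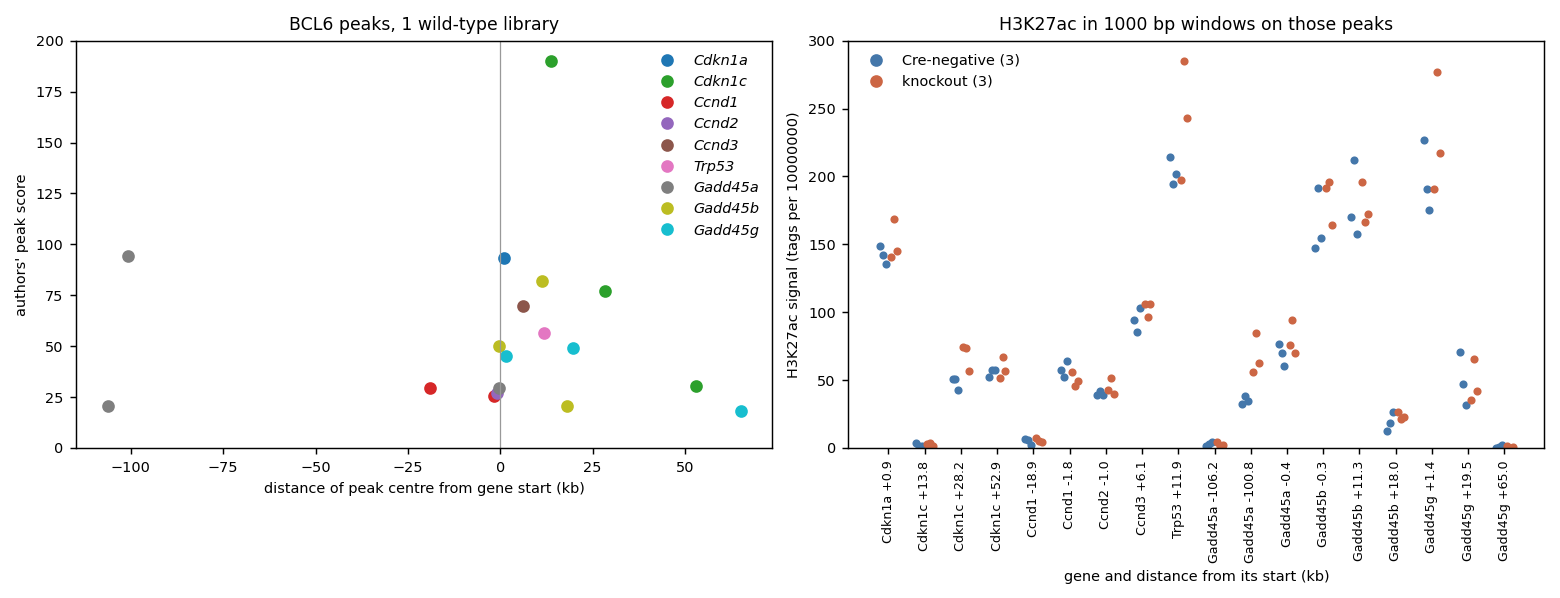
Left, authors' score (y axis) of the 18 BCL6 peaks named for a member against distance from the gene start in kb. Right, H3K27ac signal (tags per 10000000, y axis) in the 1000 bp windows on these peaks, 3 Cre-negative (blue) and 3 knockout (orange) libraries. The Gadd45a window at -100.8 kb has knockouts at 56.1 to 84.9 and Cre-negative libraries at 32.6 to 38.0.

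Acetylated regions named for a member numbered 64 in the acute and in the chronic series, counted over the same regions. In the acute series 0 of 63 tested were called by limma, where 0.0932% of 71868 regions were (0.0891% raised, 0.00417% lowered), with 8 at an unadjusted p under 0.05. A pseudocount of 5 and edgeR on recovered reads each called 1, at Gadd45a. Groups did not overlap in 9 of the 63, against 13% of all regions. In the chronic series 0 of 61 tested were called (0.167% of 68752 regions, 0.156% raised and 0.0116% lowered), with 9 at an unadjusted p under 0.05 and 0 by edgeR; 1 Gadd45a region was called without Cre-negative Ctr_1801. Groups did not overlap in 7, against 12.6% of all regions. Over all regions, an unadjusted p under 0.05 was found for 5657 of 71868 in the acute and 4668 of 68752 in the chronic series.

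Regions carry the gene with the nearest start, and some of those named for Gadd45a lie in introns of another transcript, NR_040278. Differences at Gadd45a regions were positive in 7 of 8 in the acute and 6 of 7 in the chronic series. At Cdkn1b they were in 4 of 4 and 3 of 4, at Trp53 in 2 of 2 in both, and at Cdkn1a in 2 of 2 and 1 of 1. At Ccnd1 regions they were positive in 2 of 7 and 1 of 7, and at Gadd45g regions in 2 of 9 and 5 of 9. Over all member regions 30 of 63 and 34 of 61 were positive. None of these was called, and positive differences made up 36436 of 71868 and 37301 of 68752 of all regions. The region at -65305 (chr6:67102460-67102964) had the smallest acute p of the members. It was 37.4, 49.2 and 44.7 in Cre-negative and 77.7, 76.8 and 83.8 in knockout muscle at 1 week (log2 difference 0.85, limma adjusted p = 0.0628). At 12 weeks it was 39.6, 57.7 and 38.7 against 94.9, 87.2 and 57.55, the last just under the control of 57.73 (0.80, adjusted p = 0.371). The region at -101475, which overlaps the distal Gadd45a window, was 42.5, 64.9 and 61.3 against 70.8, 45.5 and 82.3 at 1 week and 53, 39.8 and 53 against 71.5, 83.8 and 64.5 at 12 weeks. At the Ccnd1 promoter region (-764) the acute signal was 31.4, 28.4 and 33.9 against 22.7, 3.92 and 14, without overlap and not called (-1.42, adjusted p = 0.186), and the chronic ranges overlapped (7.70 to 21.7 against 8.73 to 16).

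The region nearest each start was compared as well. At Trp53 (+131) the acute signal ran from 87.9 to 116 in Cre-negative and from 92.5 to 114 in knockout muscle, and at Cdkn1a (+938) from 36.5 to 73.5 and from 63.5 to 91.5. At Cdkn1b (-673) the chronic signal ran from 88.5 to 110 and from 120 to 156 without overlap (log2 difference 0.46, limma adjusted p = 0.51), while the acute ranges overlapped. At Cdkn1c (+1126) the acute signal was lower without overlap, 30.6 to 41.7 against 18.8 to 29.9 (-0.47, limma adjusted p = 0.704). Its chronic ranges overlapped, 30.0 to 55.2 against 33.8 to 40.5 (log2 difference -0.08). Gadd45b (+776), Gadd45g (+908), Ccnd3 (in the gene) and Ccnd2 (-1156) overlapped in both series. The nearest Gadd45a region lay 12304 bases upstream and was weak, at 2.55 to 8.65 against 5.81 to 8.66 in the acute series.

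Genes around the members are given from lists of known partners and targets, with the same tests, and the share of all genes called stands beside the counts. A count near that share is no result about the list, and nothing here is called particular to a list. Of the p53 target genes, 3 of 28 tested were raised and 3 lowered against Cre-negative muscle (median difference 0.02), where 6.25% and 9.66% of all genes were. Against oil 3 of 28 were raised and 5 lowered, where 10.3% and 14% of all genes were. Polk, a translesion polymerase, fell by 0.57 ± 0.05 (SE; limma adjusted p = 5.54e-06) and by 0.71 against oil. Ccng1, which encodes cyclin G1, fell by 0.21 and 0.26. Tigar, a regulator of glycolysis, fell by 0.17 against Cre-negative muscle (adjusted p = 0.000431), and Eda2r, a receptor of the TNF family, rose by 0.64 ± 0.06 against oil (1.09e-05).

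In footprints 6 of 25 p53 targets were raised and 3 lowered (median 0.25, and 0.00 over all genes), where 10.9% of all genes were raised and 15.7% lowered. Eda2r went from 42.2 to 88.0 CPM (log2 change 1.06, edgeR adjusted p = 0.00017) and Sesn1, a stress-induced inhibitor of mTORC1, from 106 to 187 (0.82, 0.000185), while Ccng1 fell from 326 to 229 (-0.51, 0.00201). In RiboTag mRNA 3 of 30 were raised and 1 lowered (1.95% and 2.25% of all genes). Sesn1 mRNA rose from 69.2 to 164 (1.24, 9.49e-06), Plk3 rose from 5.48 to 13.5 (1.27, 0.0093), and Polk fell from 45.3 to 10.8 (-2.05, 0.00108). In efficiency 4 of 29 were raised and 2 lowered (2.93% and 6.98% of all genes), with Ei24 at 0.78 (edgeR adjusted p = 0.00578), Polk at 1.62 and Apaf1 at -1.12. With FX1, 9 of 25 targets rose and 2 fell, where 11.3% and 10.8% of all genes did. Trp53inp1, a p53 cofactor, rose by 1.44 (limma adjusted p = 0.000383), while Phlda3 fell by 1.12 and Tigar by 1.89. The Apaf1 efficiency call was lost without each of 5 libraries in turn.

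Of the partners of p53, 1 of 10 tested was raised and 2 lowered against Cre-negative muscle, and 1 and 3 of 10 against oil. Of all genes 15.9% and 24.3% were called in these comparisons. In footprints 3 of 11 were raised and 1 lowered (26.6% of all genes called), in efficiency 2 and 0 of 12 (9.91%), in nascent RNA 1 and 1 of 11 (22%) and in RiboTag mRNA 0 and 0 of 11 (4.21%). Mdm2, the ubiquitin ligase that holds p53 low, had more footprints in knockouts, 139 against 101 CPM (log2 change 0.46, edgeR adjusted p = 0.0039), and a higher efficiency (0.54, 0.0276). Trp63, a p53 relative, rose in footprints (0.69, 0.00422) and against oil (0.25, limma adjusted p = 0.000528). Hipk2, a kinase of p53, fell in footprints (-0.73, 0.00423). In nascent RNA Ppm1d, a phosphatase that acts on p53, rose by 0.54 (limma adjusted p = 0.00365) and the kinase Chek2 fell by 0.38 (0.0314). The efficiency of Trp53bp1 (0.46, edgeR adjusted p = 0.043) and its fall against oil (-0.12) were called, as were small differences of Trp63 (0.11), Hipk2 (-0.10) and Mdm4 (-0.08) against Cre-negative muscle and of Mdm4 against oil (-0.09). In this list the calls for Mdm2 and Trp53bp1 efficiency, for nascent Chek2, for Mdm4 in both tables and for Trp63 and Hipk2 against Cre-negative muscle were lost in at least 1 alternative.

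GADD45 partners include kinases of the p38 branch. Of 11 tested in poly(A) RNA, 5 were lowered against Cre-negative muscle and 4 against oil, where 9.66% and 14% of all genes were lowered. None was raised, against 6.25% and 10.3% of all genes. Map2k6, a kinase that activates p38, fell by 0.30 ± 0.03 (SE; limma adjusted p = 2.58e-05) and by 0.41 against oil. Mapk14, which encodes p38 alpha, fell by 0.23 and 0.14, and Map2k3, another p38 activator, fell by 0.16 and 0.20. These genes were also the 3 of 12 called in RiboTag mRNA, all lowered, as were 2.25% of all genes. There Map2k6 went from 193 to 125 CPM (edgeR adjusted p = 0.00147), Mapk14 from 333 to 258 (0.0163) and Map2k3 from 340 to 231 (0.0363). The Mapk14 and Map2k3 mRNA calls were lost without 1 or more single libraries.

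In footprints 3 of 11 GADD45 partners were lowered and 1 raised (15.7% and 10.9% of all genes). Map2k3 (-0.41, edgeR adjusted p = 0.00315), Mapk11 (-1.89, from 7.27 to 1.92 CPM) and Cdk1 fell, and Map2k7 rose (0.30, 0.0205). Efficiency was raised for Map2k6 (0.53), Map2k7 (0.41) and Mapk14 (0.37), 3 of 12 with 0 lowered (2.93% and 6.98% of all genes). With FX1 Map2k3 rose by 1.78 ± 0.17 (limma adjusted p = 0.000101), and Map3k4, the GADD45-bound kinase (-0.43), and Mapk11 (-0.43) fell, of 11 tested (11.3% of all genes raised, 10.8% lowered). The calls for Map2k7 footprints, for the efficiency of all 3 genes and for nascent Mapk11 were lost in at least 1 alternative.

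Among proliferation genes Aurka, a mitotic kinase, fell against Cre-negative muscle (-0.17, limma adjusted p = 0.00481) and oil (-0.38, 2e-06), in RiboTag mRNA from 20.7 to 8.11 CPM (-1.35, edgeR adjusted p = 0.00297) and in footprints from 34.4 to 19.7 (-0.80, 0.0111). In the list, 0 of 16 were raised and 2 lowered against Cre-negative muscle (Aurka and Top2a at -0.10), and 1 of 17 was raised (Mcm4, 0.10) and 3 lowered against oil, Rrm1 (-0.12) among them. Of all genes 15.9% and 24.3% were called there. In RiboTag mRNA 1 of 23 was lowered (4.21% of all genes called), in footprints 5 of 17 were, with Top2a at -1.10 and Mcm5 at -0.80 (26.6%), and in efficiency 0 of 20 were called (9.91%). With FX1 1 of 14 rose, Bub1b (0.87), where 22% of all genes were called. Top2a and Rrm1 in poly(A) RNA, Mcm5 footprints and nascent Bub1b lost their call in at least 1 alternative.

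The shares of all genes called, for the lists that follow, were 15.9% against Cre-negative muscle, 24.3% against oil, 4.21% in RiboTag mRNA, 26.6% in footprints, 9.91% in efficiency and 22% with FX1. Of cyclin-dependent kinases and partners, 0 of 13 were called against Cre-negative muscle, while Cdc25b (0.14), Cdk4 (0.11) and Cdk7 (0.10) rose against oil, of 13. In RiboTag mRNA and in efficiency 0 of 16 were called. Cdk1 footprints fell (-0.96, edgeR adjusted p = 0.0398), 1 of 14, and nascent Wee1 rose (0.78, limma adjusted p = 0.00799), 1 of 14. Cdk7 and Cdk1 lost their call in at least 1 alternative. Of pocket proteins and E2F factors, 1 of 12 was raised and 2 lowered against each control. Rb1, the target of D cyclin kinases, rose by 0.18 (limma adjusted p = 0.00138) and 0.13, E2f3 fell by 0.12 and 0.11, and E2f6 by 0.09 in both. In footprints Tfdp2 (0.56), E2f2 (0.84) and E2f4 (0.48) rose, 3 of 12 with 0 lowered. E2f6 efficiency rose (0.51), 1 of 13, nascent E2f7 rose (0.60), 1 of 11, and in RiboTag mRNA 0 of 13 were called. The calls for E2f6, for Rb1 against oil, for E2f4 footprints and for nascent E2f7 were lost in at least 1 alternative.

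D cyclin stability genes and CDK4 partners held 0 calls of 8 against Cre-negative muscle, in RiboTag mRNA, in footprints and in efficiency. Against oil Cdk4 and Fbxw8 (0.09), a ubiquitin ligase subunit for cyclin D1, rose and Ambra1 (-0.09), which directs D cyclins to degradation, fell. Fbxw8 also rose with FX1 (0.47, limma adjusted p = 0.0137), 1 of 8. INK4 inhibitors, which bind CDK4 and CDK6, held 1 call, Cdkn2b against oil (-0.08), of 3 tested in each comparison. Of lists with 0 calls, those for D cyclin stability had 4 genes at an unadjusted p under 0.05 against Cre-negative muscle, 1 in RiboTag mRNA, 1 in footprints and 3 in efficiency. The kinase list had 3 against Cre-negative muscle, 2 in RiboTag mRNA and 2 in efficiency, pocket proteins 2 and p53 partners 1 in RiboTag mRNA, and proliferation genes 3 in efficiency. INK4 inhibitors had 1 in RiboTag mRNA and 1 in footprints. Over all genes, 3844 of 13096 had an unadjusted p under 0.05 against Cre-negative muscle and 2465 of 14476 in RiboTag mRNA. In footprints 5044 of 12979 genes did, and in efficiency 4020 of 14935. The list counts were not tested against these counts over all genes, and no result about the lists is drawn from them. Ambra1, nascent Fbxw8 and Cdkn2b lost their call in at least 1 alternative.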

How the data were processed

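Poly(A) and nascent RNA values are log2 values per gene that the authors deposited with HOMER headers; per the file headers poly(A) tags were counted in exons on both strands and nascent tags over whole genes, and the log2 transform is not named. RiboTag tables hold counts per gene, per the file headers over whole genes with at most 5 tags per position. H3K27ac values are signal scaled by the authors to 10000000 tags per library, per the file headers. BCL6 peaks carry the authors' deposited score. The authors' deposited tables also give log2 fold changes, p-values and translation efficiency as a ratio. The submitters' processing notes name mm10, STAR 2.4.0, Bowtie 1.2, HOMER and DESeq2 1.14.1, with no roles. Of 74 samples, 58 had a column; the others were not analysed here.

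The members and the gene lists were chosen with earlier results of these data known. limma 3.58.1 (R 4.3.3; trended variance) was fitted to log2 values of genes with at least 4, and at least 1 above the lowest value of the table, in as many libraries as the smaller group. H3K27ac was tested with limma on log2(signal + 1) in regions with a signal of at least 5 in 3 libraries. Whole reads were recovered for 100% of its values (within 0.02 tags), and edgeR on them called 168 acute and 377 chronic regions and 1408 windows. RiboTag counts went through edgeR 4.0.16, with its quasi-likelihood test, TMM scaling and filterByExpr at a minimum count of 10. Efficiency was the term for genotype by library kind in 1 model. DESeq2 1.42.0 was an alternative. Calls have a Benjamini-Hochberg adjusted p below 0.05 over all features tested. Nothing beyond animal numbers says how samples were raised, so p-values measure the spread between these samples. Scripts were tested on simulated data.

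Footprint and mRNA libraries of 1 RiboTag animal are paired by its number; their deviations from the group means correlated at -0.03 to 0.35. All 10 members and Bcl6 were named, with up to 3 called genes of each pathway list by smallest p in each comparison, the acetylated region nearest each start and any called one; 0 members were called in RiboTag mRNA, so no most similar genes were named. Levels per exon length, and other genes or regions described, were added after values were seen. Figures were drawn with matplotlib 3.10.9.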

Additional observations from a re-analysis of the deposited data

Results flagged for a closer look

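In 5 of 110 groups of member values checked, 1 library stood apart by Dixon's test, and chance gives about 1 in 20. Gadd45a footprints were 43.3 CPM in control RNA_11673 and 71.2 to 75.3 in the other controls. The Gadd45g footprint to mRNA ratio was 3.06 in the same animal and 1.92 to 1.96 in the others. Ccnd2 RiboTag mRNA was 54.6 in control RNA_11735 and 47.8 to 49.0 in the other controls. Ccnd3 poly(A) RNA was 8.64 on the log2 scale in 1 Cre-negative library and 8.69 to 8.70 in the others. Nascent Gadd45g was 9.37 in DMSO replicate 4 and 9.93 to 10.14 in the other DMSO libraries.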

How the results depend on the processing

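The 13 member calls were recomputed under 159 alternatives. 1 was lost, Cdkn1c against Cre-negative muscle with no filter, and 0 changed direction. Of 861 alternatives of member results that were not called, 24 gave a call. A change of sign where neither value passed was not counted. Of regions, only the one nearest each start and any called one entered these counts. The Gadd45a region calls gained in the acute and chronic series, counted below, are therefore not among the 24. Members called against Cre-negative muscle were 2, and 1 with no filter (2 to 3 leaving out single libraries); against oil 2 (2 to 4). In RiboTag mRNA they were 0, and 2 by DESeq2 (0 to 1 leaving out single libraries). In footprints they were 3 (3 to 4). In efficiency they were 1, and 2 by DESeq2, with no filter and with the replicate block (1 to 2 leaving out single libraries); with FX1 they were 4 (4 to 5). Member regions called were 0 in the acute series, and 1 with a pseudocount of 5 or edgeR (0 leaving out single libraries); 0 in the chronic series (0 to 1); and 1 of the windows, and 2 with a pseudocount of 5 (1 to 2). The cause of these changes was not tested.

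Counts over all features moved more. RiboTag mRNA calls were 609, 961 by DESeq2 and 395 to 826 leaving out single libraries; efficiency calls were 1480 and 310 (without control RNA_11734) to 1892. Footprint calls were 3446 and 2293 (without knockout RNA_11721) to 3761; raised ones were 1412, 812 without control RNA_11735 and 814 without knockout RNA_11721, and the same 3 members were called each time. Calls against Cre-negative muscle were 2084, and 1387 with no filter. Acute regions were 67, 153 with a pseudocount of 5, 168 by edgeR and 6 to 72 leaving out single libraries. Chronic regions were 115, 239 with a pseudocount of 5, 309 after quantile normalization, 377 by edgeR and 0 to 395. Windows were 1654, and 959 to 1631 leaving out single libraries. For nascent RNA the replicate block gave 1001 raised and 908 lowered genes against 1652 and 1575, and 4 members again. Deviations of same-numbered nascent libraries correlated at -0.43 to 0.17. Shared numbers alone do not show whether these libraries are pairs, and the correlations cannot settle it. The block moved no other call of a member than Ccnd1 efficiency. Footprint depth limits Ccnd1 most, at 33 counts in its lowest library.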
